A study of Mus musculus with 94 samples.

Results

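Cholesterol synthesis and its first conversion to a steroid were followed through 8 genes in single basophils of mouse bone marrow. The genes were chosen by name, and all 8 were present among the 46078 gene identifiers of the count table. They were 6 enzymes of cholesterol synthesis (Hmgcs1, Idi1, Fdps, Fdft1, Sqle and Cyp51), the sterol sensor Insig1 and the steroid enzyme Cyp11a1. The first 7 are called the sterol genes below. Of the 8 genes, 7 were read in 10 or more kept cells, the minimum used for comparison with other genes, and Insig1 had reads in 8. Cyp11a1 was abundant in both kinds of basophil and higher in CD34-negative cells. The sterol genes were low in both and, as a sum, higher in CD34-positive cells.

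Cells build cholesterol from acetyl-CoA through mevalonate, isoprenoid pyrophosphates, squalene and lanosterol. When membranes of the endoplasmic reticulum hold little sterol, the SCAP protein carries SREBP transcription factors to the Golgi for release, and these factors raise transcription of the synthesis enzymes. INSIG proteins hold SCAP back when sterol is plentiful, and Insig1 is itself an SREBP target. CYP11A1 sits in the inner mitochondrial membrane and cleaves the side chain of cholesterol to give pregnenolone, the precursor of all steroid hormones. It is best known from the adrenal cortex and gonads.

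The study sorted live basophils that were Lin-, Sca1- and FcεRI+ (carrying the high-affinity receptor for IgE) into a CD34+ and a CD34- gate, with 47 cells in each. CD34 is a surface protein of blood progenitors. All cells came from female C57BL/6 mice with no stated treatment, and the design names 3 mice without tying any cell to one. Each gate is therefore 1 sample: differences have no replicate check and no test was made. Levels are CPM, the counts per 1000000 gene reads, with exact 95% Poisson intervals, and shares of cells with exact Clopper-Pearson 95% intervals. Without molecular identifiers in the reads, these cover counting error only. A log2 fold is CD34-positive over CD34-negative on log2(CPM + 1), which understates the difference of low genes.

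In each gate 46 of 47 cells were kept, with 262944 to 938322 gene reads per CD34-negative cell and 374011 to 1154738 per CD34-positive cell. No 2 cells had identical columns. At 200000 gene reads per cell, the median number of genes with a read was 4526 in CD34-negative and 6519 in CD34-positive cells. The S phase list was past a log2 fold of 1 towards CD34-positive cells for 35 of 41 genes and the G2/M list for 38 of 49, beside 21.7% of the 12460 genes tested. The part of this difference in gene number and cell cycle genes in the results below was not tested. Basophil markers were present in the kept cells with 1 exception. CD34-negative cell 10 had 354 CPM summed over the 14 basophil markers, against 14262 in the next lowest cell of its gate, 7.61 CPM of Fcer1a and 3119 CPM of the macrophage gene C1qb. It remained in its labelled group, and the main values are also given without it. Defining mast cell genes, which could mark another FcεRI+ cell, were at 0 reads for 8 of 9 genes among CD34-negative and 5 of 9 among CD34-positive cells. The summed mast cell level reached 1.43 CPM and 285 CPM in the highest cell of the respective gate.

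RefSeq promoter windows on GRCm38.p6 (the mm10 assembly), from 250 bases before a start to 50 after it, were found for 5 of the 8 genes. The stretches of 3 sterol genes are shown because these genes differed between the gates to unlike degrees, each up to the RefSeq start or the first annotated exon, whichever comes first. Capitals mark TCACNCCAC, a form of the sterol regulatory element to which SREBP binds, and CCAAT, the motif of its partner NF-Y, on either strand, so that CCAAT on the other strand reads ATTGG. They are Hmgcs1 at chr13:119690101-119690350 on the plus strand, Cyp51 at chr5:4104747-4104947 on the minus strand and Insig1 at chr5:28071162-28071362 on the plus strand, each written 5′ to 3′.
Hmgcs1: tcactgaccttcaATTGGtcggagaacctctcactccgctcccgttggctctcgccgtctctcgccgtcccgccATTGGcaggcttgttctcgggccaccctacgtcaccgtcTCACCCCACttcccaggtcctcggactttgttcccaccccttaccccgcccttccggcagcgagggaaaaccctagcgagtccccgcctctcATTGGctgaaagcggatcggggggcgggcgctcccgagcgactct
Cyp51: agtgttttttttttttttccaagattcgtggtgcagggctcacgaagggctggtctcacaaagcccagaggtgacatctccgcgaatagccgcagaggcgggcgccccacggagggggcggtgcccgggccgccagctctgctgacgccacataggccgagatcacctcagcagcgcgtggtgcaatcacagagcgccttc
Insig1: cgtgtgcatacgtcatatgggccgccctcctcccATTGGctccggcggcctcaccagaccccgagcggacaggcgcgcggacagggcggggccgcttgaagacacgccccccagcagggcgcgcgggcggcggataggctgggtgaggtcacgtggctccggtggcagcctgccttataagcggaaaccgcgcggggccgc

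The full Hmgcs1 window holds 1 TCACNCCAC, starting 137 bases before the RefSeq start, and 4 CCAAT motifs, 3 of them in the printed stretch. The Insig1 window holds 1 CCAAT and a CACGTG (an E-box, left in lower case) that begins 101 bases before the RefSeq start, which lies inside the first annotated exon. The Cyp51 window holds 1 CCAAT, beyond the printed stretch, and neither of the other motifs. Among 32851 full RefSeq windows, 1.24% hold TCACNCCAC, 37.4% hold CCAAT and 7.15% hold CACGTG on at least 1 strand. A match describes the letters only. RefSeq has 2 windows for Cyp11a1, which hold no TCACNCCAC and neither of which lies at the start of the gene in the GENCODE annotation.

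Cyp11a1 (ENSMUSG00000032323, chr9:58006411-58027023, plus strand, mm10) was read in 45 of 46 cells of each gate. The 51873 reads of the CD34-negative gate made 1551 CPM (1538 to 1564), and the 17979 reads of CD34-positive cells made 599 CPM (590 to 607). Per cell, the CD34-negative gate had a lowest value of 0, a median of 1523 CPM and a highest of 3950 CPM. The CD34-positive gate had a lowest value of 0, a median of 569 CPM and a highest of 1532 CPM. The gates overlapped, but 22 CD34-negative cells lay above the highest CD34-positive cell, and 1 CD34-positive cell lay above the CD34-negative median. The means of 1536 ± 792 CPM and 569 ± 415 CPM (SD over 46 cells) differed by 967 CPM, more than either cell-to-cell SD.

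**Figure D1:**
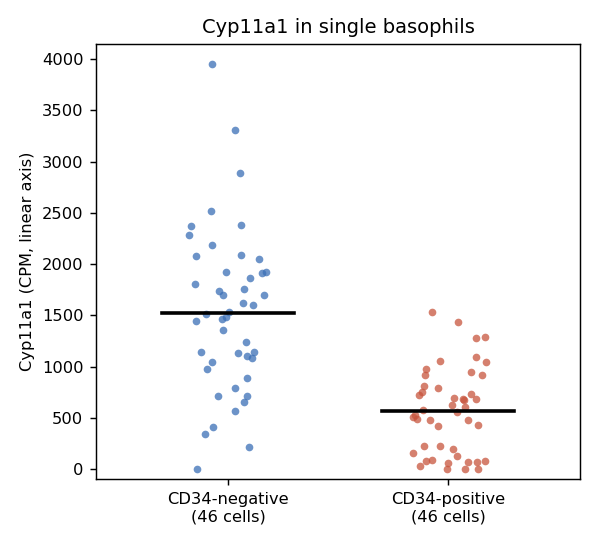
Cyp11a1 in each kept cell (CPM on a linear axis), 46 cells per gate. Points are cells, spread sideways for visibility, and bars are medians, at 1523 CPM for the CD34-negative gate and 569 CPM for the other.

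The log2 fold of Cyp11a1 was -1.37 (counting interval -1.41 to -1.34), and -1.38 without CD34-negative cell 10. The median log2 fold of the 12460 genes that met the minimum of 10 cells was 0.19, and 10.1% had a fold of at least 1 towards CD34-negative cells. The fold depended on what the reads were scaled to. Per 1000 ERCC spike-in reads, Cyp11a1 had 9.74 reads among CD34-negative and 7.35 among CD34-positive cells, and with ERCC scaling its log2 fold was -0.41. On that scale the median of all genes moved to 1.04, and the fold of Cyp11a1 less that median was -1.45, beside -1.56 with gene reads.

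Low Cyp11a1 was more frequent among CD34-positive cells. Below 100 CPM there were 1 CD34-negative and 10 CD34-positive cells, and below 500 CPM 4 and 20. The 1 CD34-negative cell without a read was cell 10, and the next lowest, cell 47, had 214 CPM. In the CD34-positive gate cell 6 had no read, and cells 1 and 41 had 3.34 and 3.79 CPM. Summed over the 14 basophil markers, cells 6, 1 and 41 had 9560, 5292 and 7675 CPM, against a gate median of 92713, and cells 1 and 41 were the lowest of the gate. The granule protease Mcpt8 was 452, 13.4 and 17.04 CPM in them, against a median of 18795 CPM, and Prss34 was 2716, 50.1 and 989 CPM, against 59397 CPM. Fcer1a was 813, 1138 and 835 CPM (median 2566), and Gata2, a transcription factor of basophils and mast cells, 1063, 2468 and 691 CPM (median 1927). Cell 6 also had 52.8 CPM of C1qb. In cells 6, 1 and 41 Cd34 was 91.8, 6.67 and 288 CPM (median 20.3). Kit, the stem cell factor receptor, was 563, 0 and 668 CPM in them (median 6.02), and Mpo, myeloperoxidase, 4153, 1448 and 8238 CPM (median 2494). The next lowest cells varied: cell 7, at 28.7 CPM of Cyp11a1, had 51781 CPM of Prss34 and 26482 CPM of Mcpt8, and cell 38, at 61.8 CPM, had 30395 and 19134 CPM. Cell 35, at 66.0 CPM of Cyp11a1, had 1001 CPM of Prss34, 4086 CPM of Mcpt8 and 167 CPM of Fcer1a. Cd200r3, a basophil surface receptor, was 4.59, 1.67 and 7.57 CPM in cells 6, 1 and 41, and 59.1, 5.15 and 4.40 CPM in cells 7, 38 and 35. In the 3 CD34-positive cells with the highest Cyp11a1 (cells 37, 25 and 24), Cd200r3 was 2942, 1991 and 2011 CPM. Kit was 57.4, 489 and 332 CPM in cells 7, 38 and 35, and 0, 1.17 and 0 CPM in cells 37, 25 and 24. Mpo was 6846, 6185 and 4284 CPM in cells 7, 38 and 35, and 0, 242 and 3011 CPM in cells 37, 25 and 24. The Cd200r3, Cd34, Kit and Mpo values of these cells were singled out after they were seen.

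Cyp11a1 levels were set beside several per-cell measures within each gate. Correlations across cells are descriptions only: the genes of a cell share its depth and total, and 29 were computed per gate. In CD34-positive cells (n = 46) Cyp11a1 had a Spearman rho of 0.353 (Pearson r 0.687) with Prss34, a basophil granule protease, and the r was 0.663 without the 2 cells farthest from the median of Prss34. Cells 6, 1, 41 and 35, low in Cyp11a1, had 2716, 50.1, 989 and 1001 CPM of Prss34, against a gate median of 59397 CPM. The r without all of these cells was not computed. In CD34-negative cells the rho with Prss34 was -0.270 (r 0.004), and -0.331 (r -0.352) without cell 10. With Kit, the stem cell factor receptor, rho was -0.399 (r -0.412) in CD34-positive and 0.027 in CD34-negative cells, the r falling to -0.288 without the 2 farthest cells. With the summed S phase genes it was -0.471 (r -0.302, and -0.277 without 2 cells) in CD34-negative and -0.120 in CD34-positive cells. Without CD34-negative cell 10 the S phase rho was -0.448 (r -0.474, and -0.407 without 2 cells). With the summed G2/M genes it was -0.156 in CD34-negative and -0.398 (r -0.315, and -0.367 without 2 cells) in CD34-positive cells. With the share of ambiguous reads, those HTSeq could not give to 1 gene, rho was -0.464 in CD34-positive cells (r -0.465, and -0.407 without 2 cells) and 0.030 in CD34-negative cells. With the number of genes read at 200000 reads, rho was -0.392 (r -0.239) in CD34-negative and -0.244 (r -0.072) in CD34-positive cells. Without CD34-negative cell 10 that gate had -0.382 (r -0.425). The differences between gates were not tested.

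The 5 genes most like Cyp11a1, by the smaller of the 2 within-gate rho values of log2(CPM + 1) among 8131 genes, were Lat2, Nedd4, Aqp9, ENSMUSG00000089672 (an identifier without a symbol in the name table) and Rnf130. Lat2 is an adaptor of immune receptor signalling and had a rho of 0.470 in CD34-negative and 0.506 in CD34-positive cells. Nedd4, a ubiquitin ligase, had 0.460 and 0.552, and Aqp9, a channel for water and glycerol, had 0.434 and 0.480. For ENSMUSG00000089672 the values were 0.415 and 0.460, and for Rnf130, a RING finger protein, 0.557 and 0.409. The 95th percentile of the smaller rho over all these genes was 0.124. All 5 were lower in CD34-positive cells, with log2 folds of -0.64 for Nedd4 to -2.85 for ENSMUSG00000089672. Over the 12460 genes tested, 58.9% were higher in CD34-positive cells. Without CD34-negative cell 10 the top 5 held the same genes, without CD34-positive cell 1 as well it held 4 of them, and over the cells of both gates together 3.

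Steroid synthesis genes ranged from abundant to unread. Of 19 listed genes 8 passed the minimum, 0 were past a log2 fold of 1 towards CD34-positive cells and 1, Cyp11a1 itself, the other way (21.7% and 10.1% over all genes), and their median fold was 0.06. Per exon length, Cyp11a1 had 323 and 125 RPKM in CD34-negative and CD34-positive cells. Its electron donors were far lower, with 3.08 and 6.26 RPKM for Fdx1 (ferredoxin) and 7.46 and 11.1 RPKM for Fdxr (ferredoxin reductase). Tspo, an outer mitochondrial membrane protein, was read in all 46 cells of each gate and had 491 and 404 RPKM. Star, which moves cholesterol into mitochondria, was read in 2 CD34-negative and 7 CD34-positive cells, at 2.27 and 7.06 CPM. Hsd3b1, Cyp17a1, Cyp21a1, Cyp11b2 and Hsd17b3, which act after pregnenolone, had 0 reads in either gate, and with the limit for a count of 0 set at 3 reads over a gate this allows up to 0.0897 and 0.0999 CPM. Other enzymes that act after pregnenolone had reads: Hsd17b1 had 11.6 and 12.6 CPM in 5 and 14 cells, and Srd5a1 1.17 and 3.73 CPM in 3 and 5 cells. Akr1c18, which inactivates progesterone, was read in 1 CD34-positive cell. Star, Srd5a1, Akr1c18 and the genes at 0 were named after their values were seen. Hsd3b7, which acts in bile acid synthesis despite its name, had 131 and 206 CPM.

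The sterol genes were much less abundant, and each was read in a minority of cells of either gate. At 200000 gene reads per cell, the median gene tested was also found in a minority, 13 CD34-negative and 22 CD34-positive cells. Together, the 1477 sterol reads of CD34-negative cells made 44.2 CPM (41.9 to 46.5) and the 2540 of CD34-positive cells made 84.6 CPM (81.3 to 87.9). The log2 fold of the sum was 0.92 (0.79 to 1.05). The per-cell sum had a lowest value of 0 in both gates, medians of 0 and 47.6 CPM, and highest values of 322 and 377 CPM. The gates overlapped over nearly their whole range, and the difference of means, 37.1 CPM, was smaller than the SDs over cells of 80.9 and 98.3 CPM. Reads were concentrated: 4 CD34-negative and 6 CD34-positive cells held over 50% of each gate's sterol reads. The median of the 7 genes' folds was 0.69, which is the fold of Idi1. The medians of the 7 lower and of the 7 upper counting bounds were 0.35 and 1.15, which is not an interval of the median. Over the 6 sterol genes that passed the minimum of 10 cells the median was 0.645, beside 0.19 over all genes that passed. The median of the 7 was 1.55 without CD34-negative cell 38, the cell with most Cyp51 reads. Without CD34-negative cell 10 the summed fold was 0.91 and the median 0.69. In the cells numbered 7 to 42 the summed fold was 0.66. Without CD34-negative cells 25 and 36, which had the highest Ctsg (2672 CPM) and Mpo (2114 CPM) of their gate, it was 1.14.

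**Figure D2:**
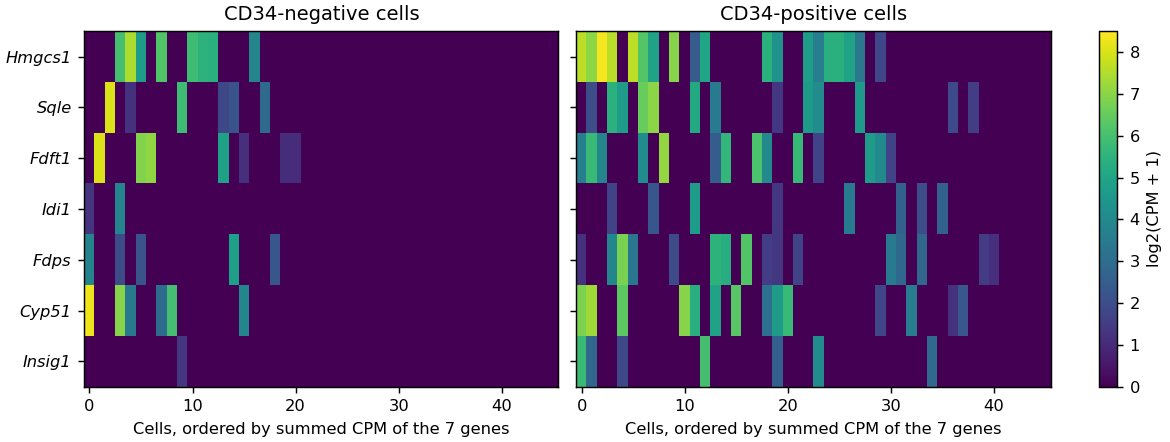
Level of the 7 sterol genes (rows, colour is log2(CPM + 1)) in the 46 kept cells of each gate (columns), ordered by their summed CPM. No read of any of the 7 was found in 25 CD34-negative and 5 CD34-positive cells, and most cells with reads show 1 or a few genes.

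Of the 6 sterol genes that passed the minimum, 2 had a log2 fold of at least 1 towards CD34-positive cells (Hmgcs1 and Fdps), beside 21.7% of all genes tested, and 0 had one the other way. This count moved with the setting. Without each gene's top cell per gate Sqle (1.57) and Cyp51 (1.19) were also past 1. With ERCC scaling, where the all-gene median was 1.04, Idi1 (1.11) and Cyp51 (1.50) were. With a pseudocount of 10 CPM Fdps (0.79) was not. Each sterol gene had a lowest and a median per-cell value of 0 CPM in both gates, so their levels rest on the cells with reads.

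Hmgcs1 (ENSMUSG00000093930, chr13:119690379-119708260, plus strand) encodes the cytosolic synthase that makes HMG-CoA, an early intermediate of the pathway. It was read in 8 CD34-negative and 19 CD34-positive cells, with highest values of 175 CPM (cell 31) and 335 CPM (cell 8). Summed, it had 10.2 CPM (9.11 to 11.3) and 32.2 CPM (30.2 to 34.3), a log2 fold of 1.57 (1.34 to 1.80). The highest CD34-positive cell held 17.8% of its gate's reads, the smallest such share among the sterol genes. Over the alternatives other than leaving out single cells its fold ran from 1.07 to 2.49.

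Idi1 (ENSMUSG00000058258, chr13:8885501-8892451, plus strand) interconverts the 2 isoprenoid building blocks, and Fdps (ENSMUSG00000059743, chr3:89093588-89101959, minus strand) joins them to farnesyl pyrophosphate. Idi1 was read in 2 and 8 cells, with 0.299 and 1.10 CPM, highest values of 12.8 CPM (CD34-negative cell 28) and 24.2 CPM (CD34-positive cell 35), and a log2 fold of 0.69 (0.18 to 1.15). CD34-negative cell 28 held 90% of the Idi1 reads of its gate, and the fold was 0.42 without CD34-positive cell 35, 0.11 with a pseudocount of 10 CPM and 1.59 with 0.1 CPM. Fdps was read in 5 and 16 cells, with highest values of 26.5 CPM (CD34-negative cell 32) and 110 CPM (CD34-positive cell 28). Its summed level was 1.11 CPM (0.779 to 1.52) and 9.22 CPM (8.17 to 10.4), a log2 fold of 2.28 (1.86 to 2.68). CD34-positive cell 28 held 45.8% of the Fdps reads of its gate, and without it the fold was 1.56. With a pseudocount of 10 CPM the Fdps fold was 0.79. The exons of Fdps share 26.7% of their length with those of Gm43738 on the same strand, so part of its reads may have been counted as ambiguous.

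Fdft1 (ENSMUSG00000021273, chr14:63145150-63179578, minus strand), squalene synthase, makes the first committed sterol intermediate. It had 13.1 CPM (11.9 to 14.4) and 12.8 CPM (11.6 to 14.2), in 7 and 14 cells, a log2 fold of -0.03 (-0.29 to 0.24). Its highest values were 266 CPM (CD34-negative cell 29, 44.9% of that gate's reads) and 138 CPM (CD34-positive cell 15). Without CD34-negative cell 29 the fold was 0.72 and without CD34-positive cell 15 it was -0.48, so its direction was not settled. Fdft1 exons share 18.3% of their length with Ctsb on the opposite strand, and the strand setting of the counting is not given in the sources used here.

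Sqle (ENSMUSG00000022351, chr15:59315077-59331192, plus strand), squalene epoxidase, had 8.22 CPM (7.28 to 9.25) and 8.26 CPM (7.26 to 9.35), a log2 fold of 0.01 (-0.31 to 0.32). The equal sums came from unlike cells: it was read in 6 CD34-negative and 13 CD34-positive cells, and CD34-negative cell 36, at 256 CPM, held 83.3% of its gate's reads. The highest CD34-positive value was 130 CPM (cell 39). Without CD34-negative cell 36 the fold was 1.94, without cells 25 and 36 it was 2.85, and in cells numbered 7 to 42 it was -0.68, so its direction was not settled.

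Cyp51 (ENSMUSG00000001467, chr5:4081145-4104746, minus strand) removes the 14-alpha methyl group of lanosterol. It had 11.3 CPM (10.2 to 12.5) and 17.6 CPM (16.1 to 19.1), in 6 and 14 cells, a log2 fold of 0.60 (0.35 to 0.85). The highest cells were CD34-negative cell 38 at 307 CPM, with 56.0% of the reads, and CD34-positive cell 34 at 156 CPM, with 29.4%. Leaving out each gave 1.62 and 0.17. CD34-positive cell 34 also had 1496 CPM summed over the eosinophil markers, against 461 in the next highest cell of its gate, and 96.5% of the gate's Prg2 reads. The part of this in the sterol values was not tested.

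Insig1 (ENSMUSG00000045294, chr5:28071363-28078662, plus strand), the SREBP target that restrains SREBP release, had 1 read in 1 CD34-negative cell and 101 reads in 7 CD34-positive cells. The highest CD34-positive values were 63.4 CPM (cell 1) and 52.0 CPM (cell 29). The summed levels were 0.0299 CPM and 3.36 CPM (2.74 to 4.09), a ratio of 112 with an exact counting interval of 19.7 to 4486. With 1 read in a gate the size of the ratio is barely bounded, and CD34-positive cell 29 held 39.6% of that gate's reads.

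The order of levels per exon length differed between the gates. In CD34-negative cells Cyp11a1 was followed by Fdft1 (3.09 RPKM), Cyp51 (2.55), Hmgcs1 (2.21), Sqle (1.48), Fdps (0.263), Idi1 (0.0853) and Insig1 (0.00967). In CD34-positive cells it was followed by Hmgcs1 (7.02 RPKM), Cyp51 (3.98), Fdft1 (3.03), Fdps (2.19), Sqle (1.49), Insig1 (1.09) and Idi1 (0.314). The SD over cells was over 2 times the mean for each sterol gene in each gate, so neighbours in these orders did not differ beyond their spread.

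Detection was compared at 200000 gene reads per cell. All 6 sterol genes that passed the minimum were found in more CD34-positive than CD34-negative cells, which also held for 81.0% of all genes tested. Hmgcs1 was found in 8 CD34-negative cells, or 17.4% (7.82% to 31.4%), and 17 CD34-positive cells, or 36.96% (23.2% to 52.5%). Fdps was found in 4 and 12 cells, or 8.70% (2.42% to 20.8%) and 26.1% (14.3% to 41.1%). These intervals overlap. The ratio of cells had a median of 2.44 over the 6 genes and 1.5 over all genes found in a CD34-negative cell. Cyp11a1, in 45 and 44 cells, differed in level and hardly in detection.

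**Figure D3:**
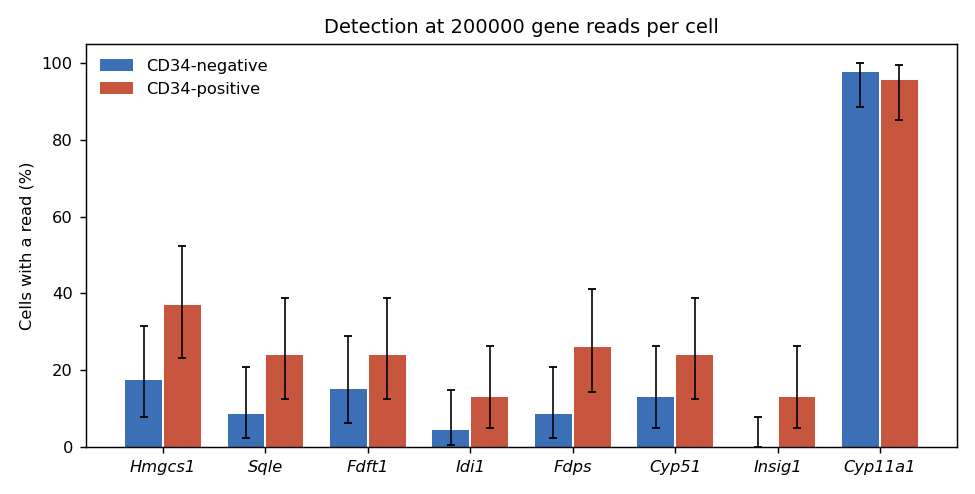
Share of the 46 kept cells of each gate with a read at 200000 gene reads per cell (percent), with exact Clopper-Pearson 95% intervals. The 7 sterol genes lie between 0% and 36.96%, and Cyp11a1 at 97.8% and 95.7%.

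Counted together at that depth, a CD34-negative cell had 0.674 ± 0.896 and a CD34-positive cell 1.61 ± 1.31 of the 7 sterol genes (mean ± SD over 46 cells). The difference of 0.93 genes was smaller than the SD over CD34-positive cells. None of the 7 was found in 25 CD34-negative cells, or 54.3% (39.01% to 69.1%), and in 9 CD34-positive cells, or 19.6% (9.36% to 33.9%). At least 3 were found in 3 and 10 cells. In the full reads, none was found in 25 and 5 cells.

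In the full reads, 2 or more of the 7 sterol genes were read in 9 CD34-negative and 25 CD34-positive cells. Over the 21 pairs of sterol genes, the Spearman rho across CD34-negative cells ran from -0.090 to 0.603 with a median of 0.004, and at most 3 cells had reads of both genes of a pair. Across CD34-positive cells it ran from -0.295 to 0.301 with a median of 0.068, and at most 9 cells had both. The most genes, 6 of 7, were read in CD34-positive cell 45, at a summed level of 53.7 CPM, and cells 29 and 34 had 5 of 7 at 377 and 350 CPM. At counts this low these values do not separate shared from separate expression. The summed sterol level and Cyp11a1 had a rho of -0.073 in CD34-negative and 0.172 in CD34-positive cells.

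In CD34-negative cells the summed sterol level ran with some granule protease genes and with the size of the transcriptome. Its rho was 0.584 with Mcpt8 (r 0.563, and 0.558 without the 2 farthest cells), 0.558 with Ctsg (r 0.609, and 0.586) and 0.552 with Prss34 (r 0.553, and 0.538). In CD34-positive cells these were -0.016, 0.149 and 0.153. With Mpo, myeloperoxidase of primary granules, it was 0.496 (r 0.617, and 0.572) in CD34-negative and 0.309 (r 0.512, and 0.362) in CD34-positive cells. With Cpa3, a mast cell and basophil carboxypeptidase, it was 0.226 in CD34-negative cells (r 0.182, and 0.292). With the number of genes read at 200000 reads its rho was 0.514 in CD34-negative and 0.311 in CD34-positive cells, and with gene reads per ERCC read 0.496 and 0.237. With the chemokine gene Ccl6 it was -0.393 and -0.280. For the summed S phase genes the rho was -0.01 in CD34-negative and 0.12 in CD34-positive cells, and for the summed G2/M genes 0.15 and 0.21. The values without CD34-negative cell 10 were 0.609 for Mcpt8 and 0.557 for Ctsg. The difference between gates was not tested, nor was the part of the number of genes read in the correlations with granule genes.

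The genes most like the summed sterol level, by the same rule, were Mrpl36, H2afz, Uba2, Eif4e and Ccdc25. Mrpl36, a mitochondrial ribosomal protein, had a rho of 0.412 in CD34-negative and 0.387 in CD34-positive cells. H2afz, a histone variant, had 0.546 and 0.383, and Eif4e, the cap-binding translation factor, 0.371 and 0.461. Uba2, a subunit of the SUMO-activating enzyme, had 0.408 and 0.380, and Ccdc25 0.367 and 0.442. When cells were drawn to 200000 reads, 2 of these 5 genes were among the top 5.

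The rest of the pathway was summarised from lists written for it. In mevalonate and squalene synthesis, 7 of 11 genes tested had a log2 fold of at least 1 towards CD34-positive cells and 0 the other way, beside 21.7% and 10.1% of all genes, with a median of 1.23. This list includes 5 of the sterol genes. Pmvk, phosphomevalonate kinase, had 4.96 CPM in CD34-negative cells and 22.4 CPM in CD34-positive cells (log2 fold 1.97), and Lss, lanosterol synthase, 31.2 and 63.5 CPM (1.00).

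In the steps from lanosterol to cholesterol, 4 of 9 genes tested were past 1 towards CD34-positive cells and 0 the other way (all genes 21.7% and 10.1%), with a median of 0.60. Erg28, a scaffold of the demethylation complex, had 12.7 and 46.2 CPM (log2 fold 1.78), read in 10 and 31 cells. Nsdhl, a sterol dehydrogenase, had 1.94 and 15.1 CPM (2.45). Msmo1, the C4-methyl oxidase, had 2.93 and 28.9 CPM (2.93), and 98.0% of its CD34-negative reads were in 1 cell. The late enzymes Ebp and Sc5d had folds of -0.11 and -0.47.

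**Figure D4:**
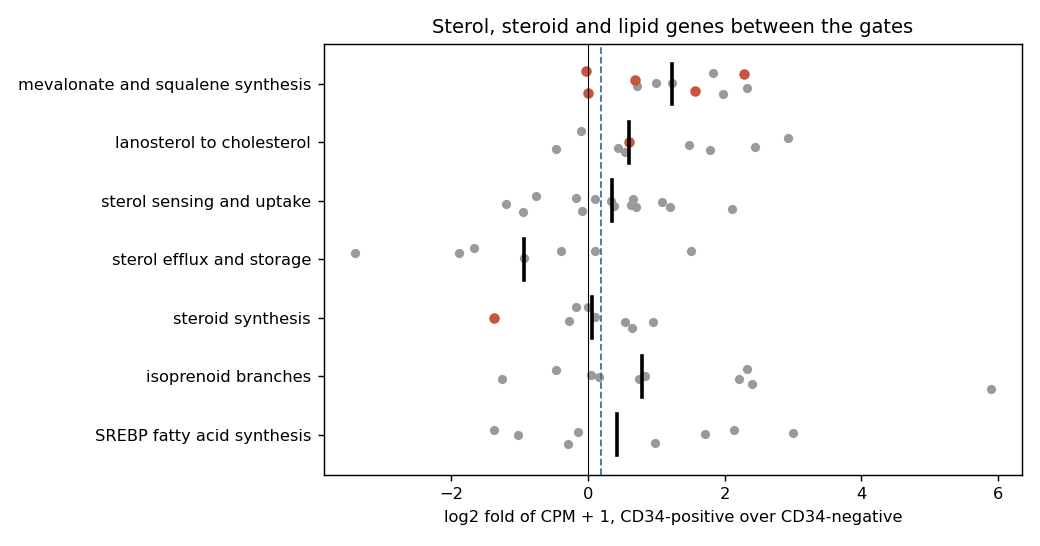
Log2 fold of CPM + 1 (CD34-positive over CD34-negative) of each gene tested, by pathway list; red points are the 7 genes followed here that passed the minimum of 10 cells, black bars are list medians and the dashed line is the median of all 12460 genes, 0.19. Medians run from -0.93 for sterol efflux and storage to 1.23 for mevalonate and squalene synthesis.

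Among genes of sterol sensing and uptake, 3 of 14 were past 1 towards CD34-positive cells and 1 the other way, shares near the 21.7% and 10.1% of all genes, with a median of 0.35. Srebf1 had 25.2 and 59.2 CPM (log2 fold 1.20), and Srebf2, the SREBP most tied to cholesterol genes, 73.1 and 92.2 CPM (0.33). Stard4, a cytosolic sterol carrier, had 13.6 and 62.1 CPM (2.11), and Npc1, which exports cholesterol from lysosomes, 65.0 and 27.6 CPM (-1.21). With the top Npc1 cell of either gate removed, the fold was -0.72.

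Sterol efflux and storage had 1 of 7 genes past 1 towards CD34-positive cells and 3 towards CD34-negative cells (all genes 21.7% and 10.1%), with a median of -0.93. Abcg1, an exporter of cholesterol, had 182 and 56.3 CPM (log2 fold -1.68), and Soat1, which esterifies cholesterol for storage, 114 and 30.2 CPM (-1.88). Apoe, a lipoprotein component, had 312 and 886 CPM (1.50). In the isoprenoid branches, which use farnesyl pyrophosphate for other products, 4 of 10 genes were past 1 towards CD34-positive cells and 1 the other way (all genes 21.7% and 10.1%), with a median of 0.79. Dhdds, a subunit of the enzyme that builds dolichol, had 0.538 and 90.6 CPM (5.90). In SREBP fatty acid synthesis, 3 of 8 were past 1 towards CD34-positive cells and 2 the other way (all genes 21.7% and 10.1%), with a median of 0.42. Examples were Fasn at 56.2 and 187 CPM (1.72) and Acss2 at 695 and 267 CPM (-1.38).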

How the data were processed

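Per the labels' protocols, cDNA of each cell was primed with oligo-dT in an adapted Smart-seq2 protocol (19 PCR cycles, ERCC spike-in) and sequenced from 1 end over 50 bp. The submitters' processing notes name GSNAP, HTSeq 0.5.3p3 and mm10. The authors deposited raw counts per gene. Gene reads were 32.4% of all reads, ERCC 3.97%, ambiguous 7.68%, no gene 33.0% and not aligned 22.9%; only gene reads entered totals.

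The cell filter required 50000 gene reads and 1000 genes, under 20% mitochondrial and under 50% ERCC reads, leaving out 2 of 94. Symbols were matched for 45143 of 46078 identifiers, and coordinates and exon lengths come from GENCODE M21 on the same build. Reads were summed over a gate, and fold intervals set 1 gate's upper bound against the other's lower bound. Each well received 1 sorted cell; neither doublet calling nor clustering was done. Genes named beyond the 8 came from pathway and marker lists with at least 10 CPM in a gate, or from the 5 most correlated, unless stated. Some genes counted in the lists are not reported here by name. The 8 genes and all lists were chosen with earlier results of these data known. Calculations were tested on simulated data. Alternatives were other filters, scalings (edgeR 4.0.16 TMM factors, scran 1.30.0, ERCC), pseudocounts, depths of drawing and left-out cells; those without CD34-negative cell 10 or CD34-positive cell 1 were chosen after seeing the data. Python 3.11.15, scipy 1.17.1 and R 4.3.3 were used.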

Additional observations from a re-analysis of the deposited data

Results flagged for a closer look

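The 2 cells left out for low depth also had Cyp11a1 reads. CD34-negative cell 20 had 35 reads of 24565, or 1425 CPM (992 to 1982), close to the median of its gate. CD34-positive cell 3 had 34 reads of 31504, or 1079 CPM (747 to 1508), above the median of its gate. They drew attention as signal in data that entered no comparison. Of the sterol genes, Hmgcs1 and Fdps had 1 read each in CD34-positive cell 3, and CD34-negative cell 20 had none, which with a limit of 3 reads allows each gene up to 122 CPM.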

How the results depend on the processing

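No paired analysis was possible because the labels tie no cell to a mouse and do not say that a shared cell number pairs cells. The 14 alternatives counted here include the 1 without CD34-negative cell 10 but no other that leaves out a single cell. Over them Cyp11a1 stayed below 0. The sterol sum, the sterol median, Hmgcs1, Idi1, Fdps, Cyp51 and Insig1 stayed above 0. Sqle, near 0, was above 0 in 11 of the 14 and Fdft1 in 3. The summed sterol fold of 0.92 became 0.72 with TMM factors, 0.73 with scran size factors, 1.87 with ERCC scaling, 1.14 without CD34-negative cells 25 and 36 and 0.66 in cells numbered 7 to 42. Dropping single cells gave 0.76 (without CD34-positive cell 34) to 1.12 (without CD34-negative cell 38). The median sterol fold of 0.69 became 1.50 with ERCC scaling, 1.59 with a pseudocount of 0.1 CPM, 1.57 without each gene's top cell per gate and 1.51 without cells 25 and 36. Leaving out each cell gave 0.57 to 1.55. The Cyp11a1 fold of -1.37 became -1.43 as the mean of per-cell CPM, -1.58 with TMM, -1.61 with scran, -0.41 with ERCC scaling, -1.42 without cells 25 and 36 and -1.34 in cells numbered 7 to 42. Leaving out each cell gave -1.43 to -1.31. Relative to the all-gene median of each scaling, the summed sterol fold was 0.70 to 0.83 and the Cyp11a1 fold -1.63 to -1.45. The sterol genes per cell differed by 0.93, by 0.62 in cells numbered 7 to 42, by 0.35 when 10 reads were required and by 1.22 without drawing, and by 0.86 to 0.99 leaving out each cell. Beyond the construction of an alternative (another scale or fewer cells), the cause was not tested. The median share of ambiguous reads in cells numbered 1 to 6, 7 to 42 and 43 to 47 was 36.4%, 18.9% and 15.3% among CD34-positive and 19.0%, 15.6% and 27.1% among CD34-negative cells. Depth limits Insig1 and Idi1 most, with 1 and 10 reads in the CD34-negative gate.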
